A study of Saccharomyces cerevisiae with 6 samples.

Results

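The genes that distinguish the mating types of budding yeast were examined as 10 named genes, 6 of a cells and 4 of alpha cells, of 5726 Saccharomyces cerevisiae genes measured on the array. The members were found by gene symbol in the chip annotation, where each was the only name of 1 probe set (a group of short probes for 1 transcript), so that 10 of 5810 S. cerevisiae probe sets were used. They were chosen on their measured log2 difference between the groups compared here. Their values are therefore given as a description, without a test.

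Cells overexpressing eEF1A, the elongation factor that brings aminoacyl-tRNA to the ribosome, were compared with control cells to ask how a raised level of this factor alters gene expression in log phase. The eEF1A cells carried a multi-copy 2 micron plasmid marked with LEU2, with TEF1 under the strong constitutive GPD promoter, and were labelled as enlarged. The control cells carried the LEU2-marked plasmid without TEF1 and were labelled as normal in size. Both were described as wild-type yeast, were grown at 30 °C in synthetic medium lacking leucine and harvested in log phase, and gave 2 arrays for eEF1A cells (replicates 2 and 3) and 4 arrays for control cells (replicates 1 to 4). The methods describe biological triplicates, and neither they nor the labels tie an array to a culture, so the spread between arrays may be technical in part. The labels give neither the strain nor the mating type of either group, so a difference of strain and the effect of the plasmid cannot be told apart.

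A haploid yeast cell is of type a or alpha, according to which allele it holds at the MAT locus. Genes of a cells need the factor Mcm1 and are shut off in alpha cells by the alpha2 repressor together with Mcm1, Tup1 and Cyc8, whereas genes of alpha cells are switched on by alpha1 with Mcm1. Each type secretes its own pheromone and carries the receptor for the pheromone of the other, and agglutinins on the 2 cell surfaces hold partners together. In diploid cells a1 and alpha2 act together and both sets of genes are off. Silent copies of the mating-type genes lie at HML and HMR and are kept off by the Sir proteins.

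Values are log2 expression after RMA, a method that corrects background, sets the distributions of the arrays equal and summarises the probes of each set. Levels of different probe sets cannot be set against each other, so each gene is compared only with itself. As a level of background, the 95th percentile of the group means over 5028 probe sets for Schizosaccharomyces pombe, a distant yeast whose RNA was not hybridised, was 5.16 on the log2 scale in eEF1A cells and 5.20 in control cells. Above it lay 5484 genes in eEF1A cells and 5457 in control cells.

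The median S. cerevisiae log2 level was 9.12 and 9.03 on the eEF1A arrays and at most 9.05 on the control arrays. Array values correlated at 0.997 between the eEF1A arrays, at 0.998 to 0.999 among the control arrays and at 0.975 to 0.976 between groups, across genes, which are not independent replicates. The CreX spike, added before hybridisation, was at 11.59 on eEF1A replicate 2 and at 13.41 on eEF1A replicate 3, against 13.31 to 13.35 on the control arrays, while the other set of Cre probes lay between 13.74 and 13.86 on all 6 arrays. The difference of the TDH1 probe sets at the 3′ and 5′ ends was 0.49 and 1.03 in eEF1A cells and 1.46 to 1.67 in control cells, and the part of these differences in any result was not tested. TEF1 and the identical-protein gene TEF2 share a probe set, which read 14.51 and 14.49 in eEF1A cells and 14.49, 14.51, 14.48 and 14.49 in control cells. Its difference was 0.00 (adjusted p = 0.955, limma), so this probe set did not show the plasmid gene above the chromosomal genes. In control cells 1 gene had a higher mean, at 14.66, so the probe set lay near the top of the scale and may have had little room to rise. The paper reports a raised level of eEF1A protein with its TEF1 plasmid, by western blot.

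All 6 genes of a cells had lower levels in eEF1A cells and all 4 genes of alpha cells had higher levels, with a median log2 difference of -4.79 for the a set and 5.89 for the alpha set, against 0.04 over all 5726 genes. In RNA from whole cultures, fewer cells of a type and less RNA per cell cannot be told apart. Differences ran between -7.07 and -4.04 in the a set and from 4.58 to at least 7.26 in the alpha set, where MF(ALPHA)1 has only a bound because it lay under background in control cells. For none of the 10 did the arrays of the 2 groups overlap, where 57.2% of all genes did not overlap, 35.8% with eEF1A higher and 21.5% with eEF1A lower. The gap between the nearest arrays of the groups was 3.97 to 6.88 in the a set and at least 4.37 in the alpha set, beside a control SD of 0.02 to 0.06 and 0.03 to 0.23. With values under background set to the background level, 12 genes differed by more than 4 on the log2 scale, the 10 members and 2 others, named below. The members were chosen on this difference and the cut lies just under the smallest of them, so their place among the 12 is no result.

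**Figure D1:**
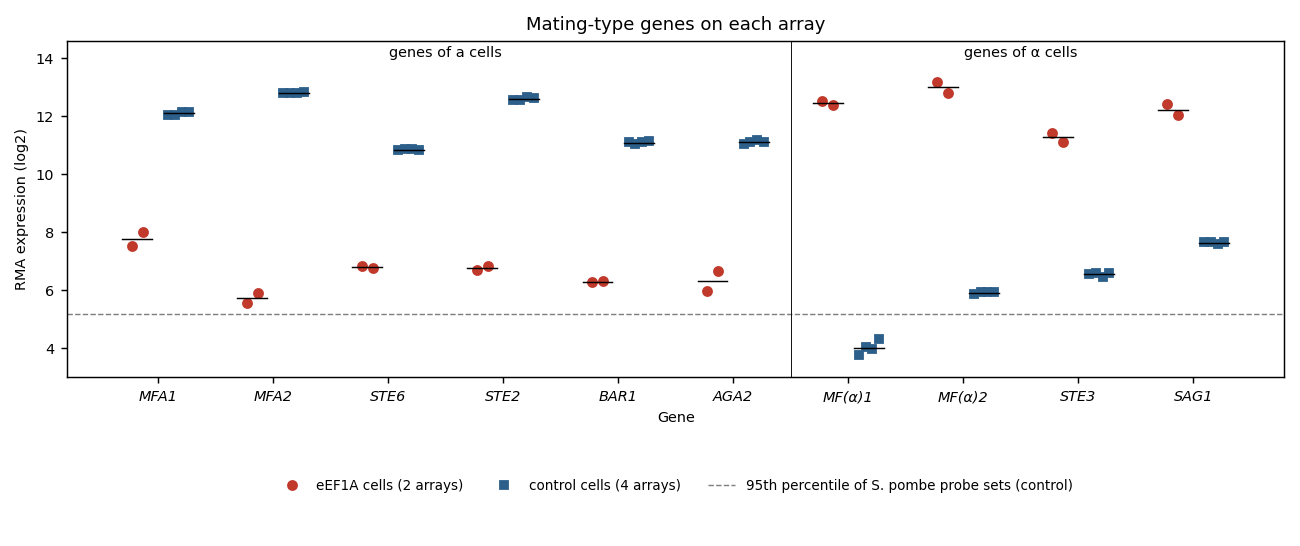
Log2 RMA expression (vertical axis) of the 10 genes (horizontal axis) on each array, with eEF1A cells (2 arrays, circles) to the left of control cells (4 arrays, squares), group means as short lines and the S. pombe background level of control cells (5.20) as a dashed line. The a genes lie low in eEF1A cells and high in control cells, the alpha genes the other way round, and only MF(ALPHA)1 in control cells falls under the dashed line.

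In each set the gene with the largest difference encoded a pheromone. MFA1 and MFA2 encode precursors of a-factor, a short peptide that a cells farnesylate and export. MFA1 (chromosome IV, 1385164 to 1385274) read 7.54 and 7.99 in eEF1A cells and 12.05, 12.05, 12.13 and 12.16 in control cells. Its means were 7.77 ± 0.32 (SD, n = 2) in eEF1A cells and 12.10 ± 0.06 (SD, n = 4) in control cells, a log2 difference of -4.33 (SE 0.11), 20.1-fold. MFA2 (chromosome XIV, 352411 to 352527) read 5.56 and 5.90 in eEF1A cells and 12.79, 12.82, 12.79 and 12.84 in control cells. This was the furthest apart of the a genes, at -7.07 (SE 0.09), 135-fold lower in eEF1A cells, where its mean of 5.73 lay 0.57 above the background level. Between the eEF1A arrays both a-factor genes were higher in replicate 3, and the 4 control arrays were nearly equal.

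MF(ALPHA)1 and MF(ALPHA)2 encode precursors of alpha-factor, the peptide secreted by alpha cells, which is cut out of a longer protein by Kex2, Kex1 and Ste13. MF(ALPHA)1 (chromosome XVI, 193647 to 194144) read 12.52 and 12.40 in eEF1A cells and 3.78, 4.03, 3.96 and 4.33 in control cells. The control values were under the S. pombe level, so that the fitted difference of 8.43 (SE 0.13) is replaced by at least 7.26 on the log2 scale, or at least 153-fold higher in eEF1A cells, with the background level in place of the control mean. MF(ALPHA)2 (chromosome VII, 344792 to 345154) read 13.19 and 12.81 in eEF1A cells and 5.87, 5.95, 5.95 and 5.93 in control cells. Its difference was 7.08 (SE 0.10), 135-fold, and unlike MF(ALPHA)1 it remained above background in control cells. MF(ALPHA)1 had the widest control SD of the members, at 0.23, and MF(ALPHA)2 one of 0.04.

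STE6 encodes the ABC transporter that exports a-factor, and is made in a cells alone. It read 6.85 and 6.78 in eEF1A cells and 10.82, 10.87, 10.86 and 10.85 in control cells (chromosome XI, 42424 to 46296). At -4.04 (SE 0.05), 16.4-fold, it was the smallest difference of the a genes, and the only one of them with the lower value in eEF1A replicate 3.

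The receptor genes differed in opposite directions. STE2 encodes the alpha-factor receptor of a cells and STE3 the a-factor receptor of alpha cells, both of which act through the same heterotrimeric G protein. STE2 (chromosome VI, 82578 to 83873) read 6.69 and 6.85 in eEF1A cells and 12.56, 12.57, 12.65 and 12.61 in control cells, a difference of -5.83 (SE 0.06), 56.8-fold. STE3 (chromosome XI, 113216 to 114628) read 11.42 and 11.13 in eEF1A cells and 6.58, 6.61, 6.47 and 6.59 in control cells, a difference of 4.71 (SE 0.09), 26.2-fold. Each receptor was thus high in 1 group alone, while its mean in the other group lay above the background level there, by 1.61 for STE2 in eEF1A cells and by 1.36 for STE3 in control cells.

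BAR1 encodes the secreted protease with which a cells degrade alpha-factor. It read 6.27 and 6.33 in eEF1A cells and 11.10, 11.03, 11.10 and 11.15 in control cells (chromosome IX, 322340 to 324103). The means were 6.30 ± 0.04 (SD, n = 2) in eEF1A cells and 11.09 ± 0.05 (SD, n = 4) in control cells, a difference of -4.79 (SE 0.05), 27.7-fold.

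The agglutinins differed by similar amounts in opposite directions. AGA2 encodes the binding subunit of a-agglutinin, which is held on the wall of a cells by Aga1, and SAG1 encodes alpha-agglutinin, its partner on alpha cells. AGA2 (chromosome VII, 436573 to 436836) read 5.96 and 6.66 in eEF1A cells and 11.03, 11.09, 11.17 and 11.11 in control cells, a difference of -4.79 (SE 0.16), 27.6-fold. SAG1 (chromosome X, 442602 to 444554) read 12.41 and 12.05 in eEF1A cells and 7.66, 7.65, 7.60 and 7.68 in control cells, a difference of 4.58 (SE 0.09), 23.9-fold. AGA2 had the widest spread between the eEF1A arrays of all members, an SD of 0.49, and for SAG1 the SD was 0.25.

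Positions are those of the SGD assembly of October 2003 given with the chip, counted from 1, and each probe set aligned there once. For 10 of 10 genes the aligned length equalled that of the gene in the RefSeq table of assembly R64 and was a multiple of 3. The genes lay on 8 chromosomes and none on chromosome III, which holds MAT, HML and HMR.

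**Figure D2:**
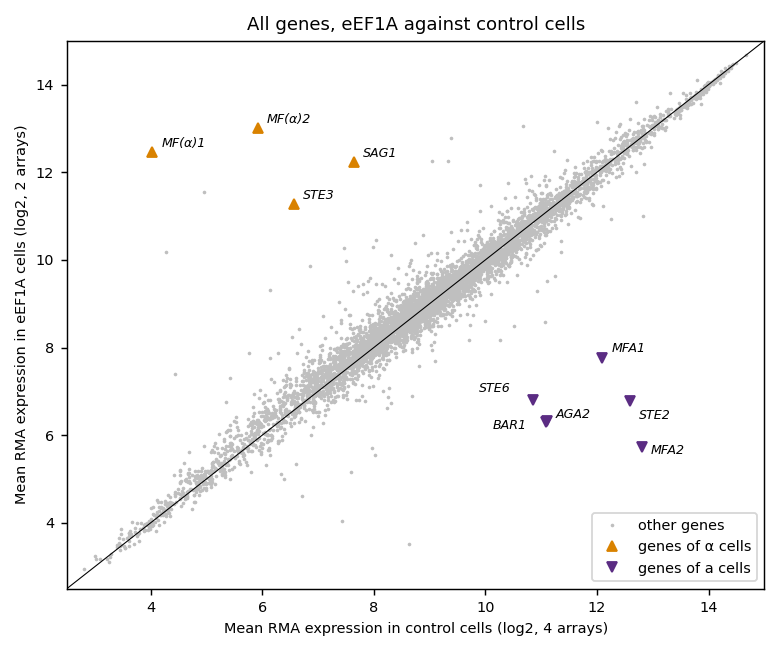
Mean log2 RMA expression in eEF1A cells (vertical axis, 2 arrays) against control cells (horizontal axis, 4 arrays) for 5726 genes, grey points, with the 4 alpha genes as upward and the 6 a genes as downward triangles and the line of equal values. The a genes, from -4.04 for STE6 to -7.07 for MFA2, and the alpha genes, from 4.58 for SAG1 to at least 7.26 for MF(ALPHA)1, which is drawn at its measured values, stand well off the line.

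In the group where a gene was low, its mean still lay above the S. pombe level for 6 of 6 a genes in eEF1A cells, by 0.57 to 2.61, and for 3 of 4 alpha genes in control cells. With the 99th percentile of the S. pombe probe sets as the level, 5 of 6 a genes in eEF1A cells and 3 of 4 alpha genes in control cells were above it. What this low signal came from was not tested.

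The 2 eEF1A arrays differed from each other in opposite ways in the 2 sets. In eEF1A replicate 3, 5 of 6 a genes were higher than in replicate 2, by 0.06 for BAR1, 0.16 for STE2, 0.34 for MFA2, 0.45 for MFA1 and 0.70 for AGA2, and STE6 was lower by 0.07. All 4 alpha genes were lower in replicate 3, with differences of -0.12 for MF(ALPHA)1, -0.30 for STE3, -0.35 for SAG1 and -0.38 for MF(ALPHA)2. Over all genes 82.2% were lower in replicate 3, with a median of -0.11. Among the 890 genes whose level in eEF1A cells was in the range of the a genes, 83.7% were lower in replicate 3 (median -0.18), and among the 541 in the range of the alpha genes 88.4% were (median -0.10). Thus 5 of the 6 a genes ran against most genes of their level, and 3 of the alpha genes were below the middle 50% of theirs. With 1 array on each side, this difference has no replicate check.

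**Figure D3:**
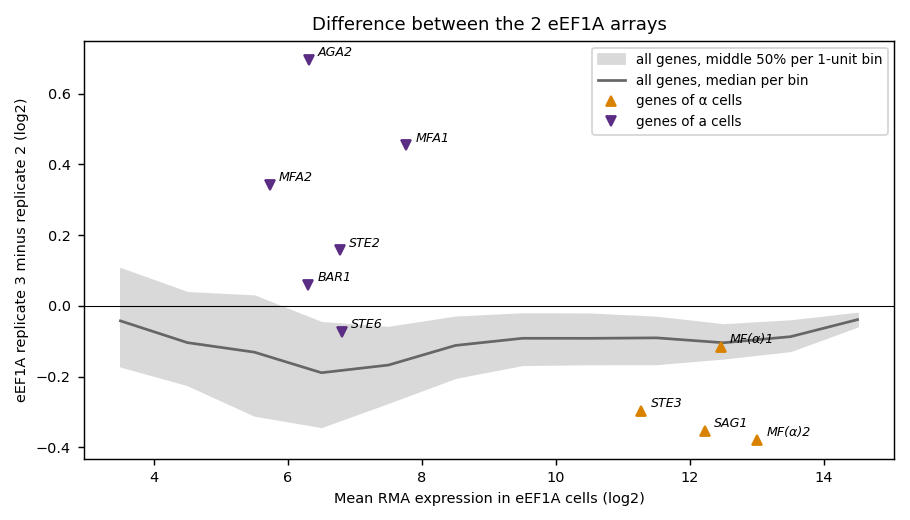
eEF1A replicate 3 minus eEF1A replicate 2 in log2 units (vertical axis) against the mean log2 RMA expression in eEF1A cells (horizontal axis), with the median (line) and middle 50% (band) of all genes in bins 1 unit wide. The a genes reach 0.70 (AGA2) and the alpha genes -0.38 (MF(ALPHA)2), while the median of all genes is -0.11.

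Leaving out eEF1A replicate 2 gave a median difference of -4.60 for the a set and 5.73 for the alpha set, and leaving out eEF1A replicate 3 gave -4.98 and 6.06. AGA2 depended most on the array, at -4.44 without replicate 2 and -5.14 without replicate 3. No member changed sign under any alternative.

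The genes that set cell type were asked next, since they lie upstream of the members. A list of 8 other cell-type and cassette genes was covered by 5 probe sets, and of these 3 were higher and 2 lower in eEF1A cells at a limma adjusted p under 0.05, where 42.9% of all genes passed, 27.5% higher and 15.4% lower. Of all genes that passed, 64.1% were higher after RMA alone and 48.7% once each array was centred on its S. cerevisiae median. At a B-statistic (log odds of a difference) above 1.5, 8.59% of all genes passed. The list was drawn up with earlier results of these data known. HMLALPHA1/MATALPHA1, a probe set shared by the silent and the expressed copy of the activator alpha1, read 10.16 and 10.20 in eEF1A cells and 4.18, 4.38, 4.12 and 4.41 in control cells. Control values were under background, and the difference was at least 4.98, or at least 31.6-fold higher. As measured it was 5.91 (adjusted p = 1.81e-09, limma). Each adjusted p given beside a bound is for the difference as measured. HMRA1, which encodes the a1 homeodomain protein, read 3.50 and 3.52 in eEF1A cells and 8.54, 8.77, 8.62 and 8.57 in control cells. Here the eEF1A values were under background, and the difference was -3.46 or lower, and -5.11 as measured (adjusted p = 1.12e-09, limma, for the measured difference). The alpha1 signal was thus confined to the eEF1A arrays and the a1 signal to the control arrays, relative to the S. pombe level, and the a1 sequence at HMR is also that of a MATa locus, so the probe set does not tell which locus was read.

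AFB1 encodes the a-factor barrier protein of alpha cells and ASG7 an a-cell protein that acts on the G protein after mating. AFB1 read 12.31 and 12.19 in eEF1A cells and 8.99, 8.95, 9.15 and 9.05 in control cells, 3.21 higher (SE 0.07, adjusted p = 2.15e-08, limma). ASG7 read 5.70 and 5.70 in eEF1A cells and 7.98, 7.89, 8.02 and 7.97 in control cells, a difference of -2.26 (SE 0.05, adjusted p = 3.31e-08, limma). Both moved in the direction of the members of their own cell type. The probe set HMLALPHA2/HMRA2/MATALPHA2, named here after its values were seen, read 10.61 and 10.66 in eEF1A cells and 9.31, 9.45, 9.34 and 9.44 in control cells, a difference of 1.25 (SE 0.06). It covers alpha2 and its partial copy at HMR, and was far above background in both groups. Without the probe sets that can match several genes, 1 of the 5 remained higher, AFB1.

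Laboratory strain markers, genes that common strains have lost as nutritional markers, were read on the same arrays because the labels do not name the strains. Of 7 measured markers 5 were higher and 0 lower in eEF1A cells (71.4% called, median 0.29), and TRP1 was not analysed here. Over all genes 42.9% were called and 27.5% were higher. MET17, which encodes O-acetylhomoserine sulfhydrylase, read 11.47 and 11.62 in eEF1A cells and 4.90, 5.22, 4.98 and 4.75 in control cells, at least 6.35 higher on the log2 scale since the control mean was under background (adjusted p = 5.82e-09, limma). URA3, which encodes orotidine-5′-phosphate decarboxylase, read 7.56 and 7.25 in eEF1A cells and 4.22, 4.44, 4.57 and 4.49 in control cells, at least 2.21 higher (adjusted p = 9.45e-07, limma). The means of MET17 and URA3 were above background in eEF1A cells alone, and for both the arrays of the groups did not overlap. ADE2 was 0.51 and HIS3 0.29 higher (adjusted p = 6.27e-04 and 0.00216, limma), and LEU2, the marker on both plasmids, differed by 0.06 (adjusted p = 0.352) and the permease gene CAN1 by -0.03 (adjusted p = 0.792). The part of a strain difference in the members' values was not tested.

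**Figure D4:**
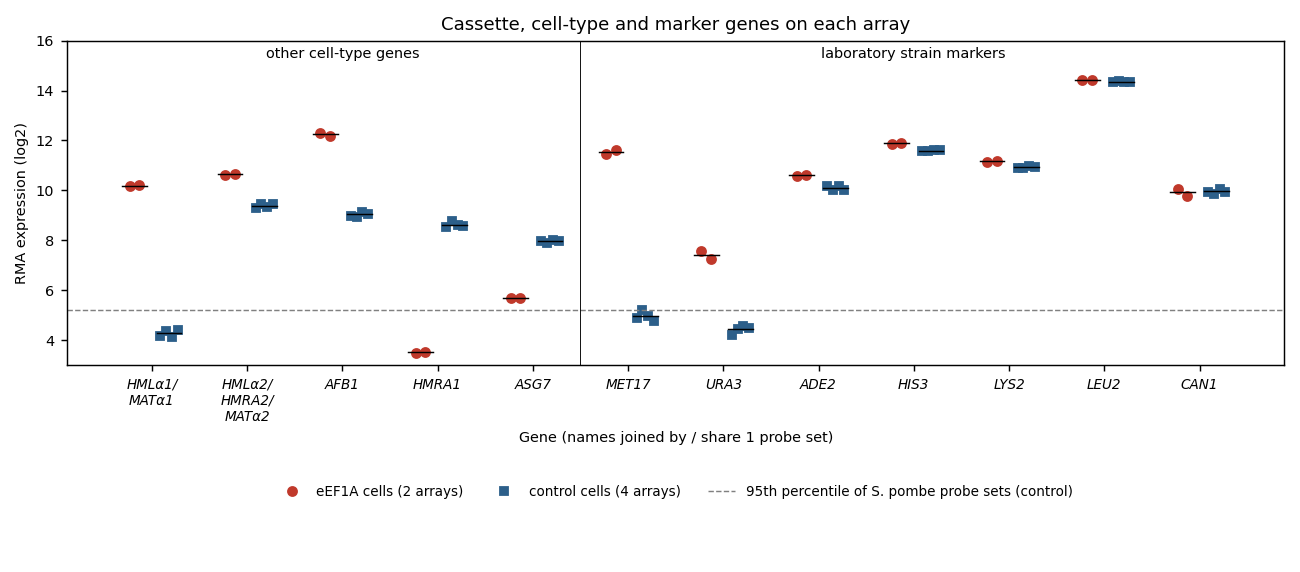
Log2 RMA expression (vertical axis) of the 5 other cell-type probe sets and 7 strain markers (horizontal axis) on each array, with eEF1A cells (2 arrays, circles) to the left of control cells (4 arrays, squares), group means as short lines and the S. pombe background level of control cells (5.20) as a dashed line. The means of HMLALPHA1/MATALPHA1, MET17 and URA3 lie under the dashed line in control cells alone, and that of HMRA1 in eEF1A cells alone.

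Of 11 regulators that work with the mating-type proteins or silence and switch the cassettes, 3 were higher and 2 lower in eEF1A cells (median 0.07). This is a share of 45.5%, near the 42.9% called over all genes. The genes of the cofactors that act on the members did not pass, MCM1 at -0.10 (adjusted p = 0.246, limma) and TUP1 at 0.09 (adjusted p = 0.351). RME1, which encodes a repressor of meiosis that is itself shut off by a1 and alpha2 in diploids, rose by 0.81 (SE 0.09, adjusted p = 3.21e-04), reading 10.60 and 10.26 in eEF1A cells and 9.65, 9.58, 9.68 and 9.59 in control cells. SIR2, the histone deacetylase of the silent cassettes, had a difference of -0.72 (SE 0.06, adjusted p = 7.68e-05), and HO, the gene of the endonuclease that starts switching, one of -0.46 (SE 0.09, adjusted p = 0.00516), or -0.27 without eEF1A replicate 3. SIR3, a silencing protein gene, was 0.22 higher (adjusted p = 0.0152), but its adjusted p was 0.0588 without eEF1A replicate 3. These differences were all smaller than that of any member.

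Of 10 genes of enzymes that mature the pheromones 3 were higher and 1 lower in eEF1A cells (median 0.12), with differences between -0.29 and 0.33. The share called was 40.0%, near the 42.9% over all genes. STE13, an aminopeptidase gene for alpha-factor, rose by 0.33 (adjusted p = 0.00248, limma) and RCE1, a protease gene for farnesylated a-factor, had a difference of -0.29 (adjusted p = 0.00748). RAM2, a subunit of farnesyltransferase, was 0.18 higher and STE23, a protease of a-factor maturation, 0.15 higher (adjusted p = 0.0305 and 0.0384). Neither passed without control replicate 1, 2 or 4 (adjusted p from 0.0691 to 0.104), nor RAM2 without eEF1A replicate 2 (0.0898) or STE23 without eEF1A replicate 3 (0.107). The count of higher genes was 1 without control replicate 1, 2 or 4 and 5 without control replicate 3. It fell without eEF1A replicate 2, as did the count over all genes. STE24 and KEX1, with the highest means of those that did not pass, were at -0.02 and -0.01.

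Both receptors feed the same signalling pathway, of which 21 genes were measured. 1 was higher and 5 were lower in eEF1A cells (28.6% called, median -0.09), where 42.9% of all genes were called, 27.5% higher and 15.4% lower. PTP3, a phosphatase gene of the MAP kinase Fus3, differed by -0.53 (SE 0.12, adjusted p = 0.00748, limma), GPA1, the G protein alpha subunit, by -0.32 (SE 0.07, adjusted p = 0.0060) and STE7, the MAP kinase kinase, by -0.25 (adjusted p = 0.0225). SST2, whose product speeds GTP hydrolysis by Gpa1, was 0.25 higher (adjusted p = 0.0242). STE4, the G protein beta subunit, was at -0.20 (adjusted p = 0.0946) and CDC42 at 0.00. The count of lower genes was 3 without control replicate 2, 3 or 4, and 9 after centring each array on its median. Centring also raised the count of lower genes over all genes, from 884 to 1451. The count of lower signalling genes rose without eEF1A replicate 2 and fell without eEF1A replicate 3. Counts over all genes moved the same way, where 82.2% of all genes were lower in replicate 3 than in replicate 2. STE4 was at -0.35 without eEF1A replicate 2, where it passed. STE7 lost its call without eEF1A replicate 3, at -0.15, and without control replicate 2 or 3. SST2 lost its call without eEF1A replicate 2, at 0.17, and without control replicate 1, 2 or 4. GPA1 and STE4 are genes of haploid cells of both types, and both were well above background in each group.

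Of 22 genes known to be induced by pheromone 8 were higher and 4 lower (54.5% called, median 0.11). Over all genes 42.9% were called, 27.5% higher and 15.4% lower. The labels name no pheromone treatment. PRM8, a membrane protein gene, read 4.18 and 3.89 in eEF1A cells and 7.36, 7.46, 7.49 and 7.40 in control cells. With the eEF1A mean under background it was at least 4.83-fold lower (adjusted p = 5.00e-08, limma). PRM5 was 1.13 higher (SE 0.06, adjusted p = 9.85e-06), AGA1, the anchor subunit for Aga2, 0.75 higher (SE 0.08, adjusted p = 3.17e-04) and PRM1, a gene of cell fusion, 0.68 higher (SE 0.14, adjusted p = 0.00570), or 0.42 higher without eEF1A replicate 2. AGA1 thus rose where AGA2 was low, reading 10.21 and 9.93 in eEF1A cells and 9.29, 9.24, 9.40 and 9.34 in control cells. FUS1, a cell fusion gene strongly induced by pheromone, was at -0.05 (adjusted p = 0.752) and the transcription factor gene TEC1 at -0.19 (adjusted p = 0.274). Without eEF1A replicate 2 the count of higher genes fell, as it did over all genes, and TEC1 was at -0.44 and passed.

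The members of both types are off in diploid cells, and 10 meiotic and diploid genes were read as well. Of these 6 were higher and 0 lower in eEF1A cells (60% called, median 0.21), where 42.9% of all genes were called and 27.5% higher. IME2, a kinase gene of meiotic entry, was 0.56 higher (SE 0.09, adjusted p = 0.00145, limma) and SPO11, the gene of the meiotic endonuclease, 0.34 higher (adjusted p = 0.00948), or 0.20 higher without eEF1A replicate 2. HOP1 and SPR3 passed as well, but their means were under background in both groups and no fold is given, and DMC1 and REC8 were at 0.01 and 0.06. The count of higher genes was 3 after median centring, which gave 1376 higher over all genes, against 1575 before it. It also fell without eEF1A replicate 2, as did the count over all genes, and HOP1 and SPR3 did not pass there. These differences are at most 0.56, beside 4.04 or more in size for the members. Whether either group held diploid cells was not tested.

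**Figure D5:**
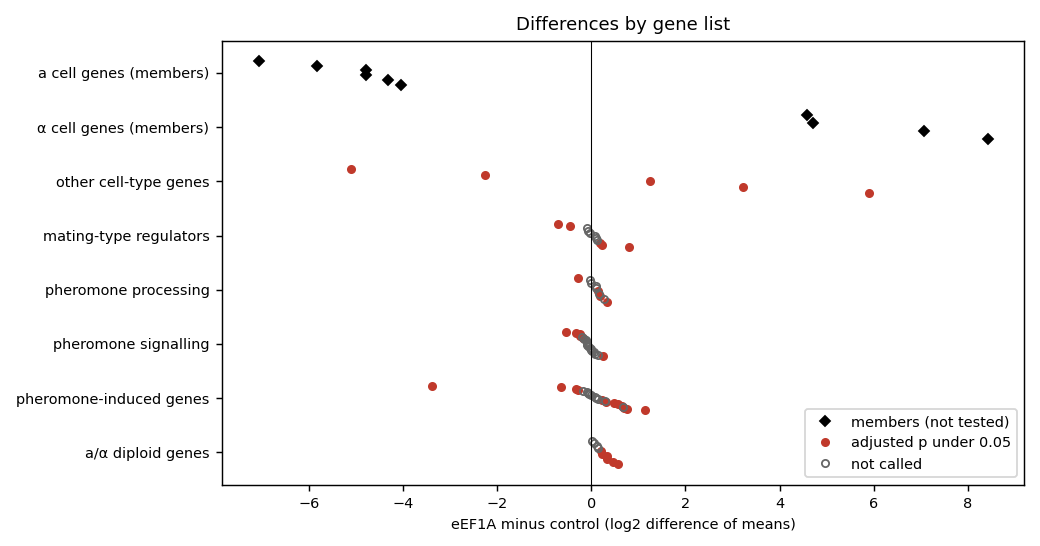
eEF1A minus control difference in mean log2 RMA expression (horizontal axis) of each gene in 8 lists (rows), with the members as diamonds that were not tested, genes at a limma adjusted p under 0.05 as filled circles and other genes as open circles. The a genes lie between -7.07 and -4.04 and the alpha genes at 4.58 or higher, and the regulators between -0.72 and 0.81. Values under background are drawn as measured.

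The genes most like each set were found by the Euclidean distance, over the 6 arrays, between a gene's values minus its control mean and the median of the same over the set. Nearest to the a set were HMRA1 (distance 0.557), PRM8 (2.03), RRT5 (3.30), SUL1 (3.34) and ASG7 (3.59). RRT5 differed by -2.48 and the sulphate transporter gene SUL1 had its eEF1A mean just under background, at least 5.41-fold lower. Nearest to the alpha set were HMLALPHA1/MATALPHA1 (0.326), MET17 (1.10), ZPS1 (3.57), AFB1 (3.80) and GSY1 (3.84). ZPS1, a gene of the zinc response, differed by 3.38 and GSY1, a glycogen synthase gene, by 3.19. With only 2 groups, this measure largely ranks genes by the size of their difference. HMLALPHA1/MATALPHA1 and MET17 are the 2 genes beside the members that differed by more than 4 with the background level in place of lower values. HMRA1 differed by -5.11 as measured, but its bound was -3.46. The distances use the values as measured, also where they lay under background.

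The chromosomal neighbours of the members did not share their size of difference. Of the 20 genes next to a member in the gene order of assembly R64, 18 were measured. Of these 8 were higher, 3 lower and 7 not called (61.1% called). Over all genes 42.9% were called, 27.5% higher and 15.4% lower. The differences of the neighbours lay between -0.96 and 0.63 (median 0.17). GYP8, beside STE2, was at -0.96 and YNL146W, beside MFA2, at 0.63, the ends of that range.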

How the data were processed

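RNA from 6 log-phase cultures or extracts, as labelled, was hybridised to Affymetrix Yeast 2.0 arrays. The authors normalised them with RMA in affylmGUI (RMA named without a version in the submitters' processing notes) and deposited log2 values for 10928 probe sets, of which 5810 are of S. cerevisiae. Columns of other samples were 0 in number. The authors' own comparison sheets, with log2 fold changes, average levels, test statistics, p-values, B-statistics and gene ontology groups, were not used. Starting from these log2 values, group differences were estimated with limma 3.58.1 (R 4.3.3) on S. cerevisiae probe sets, group being the single factor (prior proportion 0.01, 4.09 prior and 4 residual degrees of freedom). Names came from the deposited chip annotation and a RefSeq table of assembly R64, whose locus tags matched 5713 probe sets. Of several probe sets of a gene (40 genes) the one with the highest mean was kept, and 26 control probe sets without a gene name and 4 without annotation used here were left out. P-values were adjusted by Benjamini-Hochberg over 5726 genes, and the fit was tested on simulated data.

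The members and all gene lists were chosen with earlier results of these data known. Named in the text were all members, in each other list up to 4 genes that passed with the largest differences and up to 2 with the highest means that did not, and the 5 genes most like each set. A group mean that did not exceed the 95th percentile of S. pombe probe set means was replaced by that percentile, which makes the difference a bound. The limma tests used the values as measured, so an adjusted p beside a bound does not test the bound. Alternatives covered scaling, samples, the replicate block, moderation, probe set choice, filters and the threshold. No gene, promoter or protein sequence was used here, so the planned promoter motif search was not run.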

Additional observations from a re-analysis of the deposited data

Results flagged for a closer look

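SPO11, the gene of the meiotic endonuclease, read 5.84 in control replicate 2, against 5.94, 5.94 and 5.93 in control replicates 1, 3 and 4. The gap to the nearest array was 0.923 of the range of the 4 control arrays, above Dixon's critical value for 4 arrays. Of 54 genes checked in this way 1 was flagged, where chance flags about 1 in 20 groups, and none of the 10 members was.

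URA3 has further probe sets on the chip that were not used for the comparison, and 2 of them carried signal in eEF1A cells alone. The gene's own probe set read 6.59 and 5.84 in eEF1A cells and 3.34, 3.39, 3.72 and 3.47 in control cells, a difference of 2.74, and the 3′ control probe set 7.13 and 6.51 in eEF1A cells and 4.16, 4.18, 4.49 and 4.11 in control cells, a difference of 2.59. The control means of both lay under the S. pombe level, so these differences are fitted values and not bounds, which would be smaller. The probe set used for URA3 in the comparison was itself a control probe set, kept for its highest mean. The 5′ control probe set was under that level in both groups.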

How the results depend on the processing

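No alternative changed the sign of a member or turned the call of a tested gene to the other direction. Some tested genes that had not passed did change sign, such as FUS1, from -0.25 to 0.16 over the alternatives. Of 40 named genes tested under 16 alternatives that keep the adjusted p (15 for 3 of the genes), 25 kept their call under each that was run and 15 lost or gained it under at least 1. The remaining alternative, a B-statistic above 1.5, was passed by 11 of the 28 named genes called and not by the other 17. The class medians of the members became -4.91 for the a genes and 5.80 for the alpha genes after quantile normalisation over S. cerevisiae probe sets, and lay between -4.98 and -4.60 and between 5.73 and 6.06 when single arrays were left out.

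Counts of the other lists depended more on the processing. Over all genes 1575 were higher and 884 lower. Median centring gave 1376 and 1451, with 1 higher pheromone processing gene, 9 lower signalling genes and 3 higher diploid genes. Quantile normalisation gave 1371 and 1491, with 1 higher regulator, 9 lower signalling, 7 lower pheromone-induced and 3 higher diploid genes. Limma with a trend called 5 processing genes higher, and moderation over all probe sets of the chip 1. A B-statistic above 1.5 called 348 genes higher and 144 lower, with regulators at 1 and 1, processing at 0 and 0, signalling at 0 and 0, pheromone-induced at 2 and 1, diploid at 0 higher and strain markers at 2 higher. Without ambiguous probe sets 1 other cell-type gene was higher. By Pearson correlation, 2 of 5 genes most like the a set and 2 of 5 most like the alpha set stayed the same.

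With single control arrays left out, counts of all genes ran from 1259 to 1493 higher and 687 to 730 lower. Regulators ran from 2 to 3 higher with 2 lower, and processing genes from 1 to 5 higher with 1 lower. Signalling genes ran from 0 to 1 higher and 3 to 4 lower, and pheromone-induced genes from 6 to 8 higher and 3 to 4 lower. Diploid genes ran from 4 to 5 higher with 0 lower. Markers stayed at 5 higher, and other cell-type genes at 3 higher and 2 lower. Where 1 eEF1A array was left out, the lone eEF1A array was assumed to vary like the control arrays.

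Only the numbers 2 and 3 occur in both groups, and the deviations of equally numbered arrays correlated at -0.015 and -0.041. With 2 eEF1A arrays, their deviations from the group mean mirror each other. These values therefore cannot tell whether equally numbered arrays shared more than a number. With the replicate block 773 genes were higher and 436 lower, with 1 higher regulator, 0 and 0 processing genes, 0 higher and 1 lower signalling gene, 3 higher diploid genes and 3 higher markers. The same 4 arrays without the block gave 853 and 461, with 1 higher regulator, 0 and 0 processing genes, 0 higher and 2 lower signalling genes, 5 higher pheromone-induced genes and 3 higher diploid genes. The number of arrays, 2 and 4, limits the precision.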
